A study of Mus musculus with 22 samples.

Results

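Described here are the 10 genes of the integrated stress response listed as Eif2ak4 (which encodes GCN2), Eif2ak3, Atf4, Ddit3, Trib3, Chac1, Asns, Slc7a11, Psat1 and Phgdh, out of 17023 genes with a transcript in the table. They were selected on results of these data. The genotype difference of an Eif2ak4 transcript in the spleen and the peritoneal cavity (PC) was known when the list was drawn up. The NFKBIE-ko against NFKBIE-wt values of tissue samples, and differences between compartments in that genotype effect, are therefore given as a description. No p-value is given there for Eif2ak4. Calls of the other genes there are counted beside the share of all genes called, and nothing is read from them. The share of all genes whose genotypes do not overlap was not counted in any compartment, and nothing is read from a lack of overlap. GENCODE assigns 32 of the 62492 transcripts of the table to these genes, from 1 transcript each for Asns, Chac1 and Trib3 to 7 for Eif2ak4. The cells come from the TCL1-355 TKO line, a murine leukemia line established from the Eμ-TCL1 transgenic model of chronic lymphocytic leukemia, in which CDKN2A and CDKN2B carry lesions in both genotypes. In NFKBIE-ko cells, Nfkbie had been targeted in exon 2 by CRISPR/Cas9 ribonucleoproteins, and NFKBIE-wt cells were mock-edited. Each genotype was grown in a single C57BL/6 mouse before transfer into C57BL/6 recipients, so effects of the genotype and of that passage cannot be told apart. Unpurified cells were recovered 10 days after transfer from the spleen (4 samples per genotype) and the PC (4 samples per genotype). For the cultures, cells taken from spleens of 3 different mice were grown separately in vitro for 2 weeks, which gave 3 samples per genotype. The 6 groups add up to 22 samples with total estimated counts between 24036763 and 26581304. Levels are given as TMM-scaled CPM, which corrects for sequencing depth, and replicates are separate samples of one group, so that p-values measure the spread between these samples only.

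The integrated stress response is a shared arm of several stress pathways. Several kinases, of which GCN2 senses uncharged tRNA during amino acid shortage and PERK (Eif2ak3) senses unfolded protein in the endoplasmic reticulum, phosphorylate the translation initiation factor eIF2, which lowers general translation while the mRNA of the transcription factor ATF4 is translated more. ATF4 and its partner CHOP (Ddit3) raise transcription of genes for amino acid synthesis and transport, among them Asns, Psat1, Phgdh and Slc7a11, and of the feedback and death-associated genes Trib3 and Chac1. In B cells and their tumors this response is known from nutrient limitation and from the secretory load of the endoplasmic reticulum.

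Before the results, 2 libraries stood apart from their group. The library labelled NFKBIE-wt spleen replicate 4 correlated more with cultures of either genotype than with the other NFKBIE-wt spleens (mean Pearson's r over genes of 0.936). The mean r was 0.98 with NFKBIE-ko cultures and 0.962 with NFKBIE-wt cultures (0.928 to 0.982). Markers of granulocytes summed to 0.116 CPM in it against 59.6 to 372 CPM in the other NFKBIE-wt spleens. Replicate 3 of the cultures labelled NFKBIE-wt correlated more with NFKBIE-wt spleens (0.965) than with the other NFKBIE-wt cultures (0.923), and markers of erythroid cells summed to 1440 CPM in it against 12.0 to 20.7 CPM in the other cultures of that genotype. Each library was thus more like another compartment than the one in its label, and whether the 2 labels had been exchanged was not tested. Labels were kept, and values that moved with these libraries are also given without them. Nfkbie itself was 0.19 higher on the log2 scale in the libraries labelled NFKBIE-ko than in those labelled NFKBIE-wt of the spleen (SE 0.27), whereas it was lower in the PC (-0.56, SE 0.12) and in vitro (-0.93, SE 0.33). With both libraries that stood apart left out, it was at 0.43 (SE 0.24) in the spleen and -1.23 (SE 0.13) in vitro, and the deposited values do not check the edited exon. The 8 B-cell markers were all detected in each group, with sums from 1750 to 3850 CPM. Markers of other cells moved with the genotype: the 10 markers of macrophages and monocytes summed to 3860 to 5690 CPM in NFKBIE-ko PC and 580 to 1770 CPM in NFKBIE-wt PC, and the 6 markers of cytotoxic lymphocytes to 34.9 to 98.1 CPM in NFKBIE-ko spleen and 1.2 to 9.04 CPM in NFKBIE-wt spleen. The 8 markers of granulocytes summed to 29.8 to 45.6 CPM in NFKBIE-ko PC and 135 to 407 CPM in NFKBIE-wt PC. The 10 markers of T cells summed to 173 to 186 CPM in NFKBIE-ko PC and 58.6 to 79.2 CPM in NFKBIE-wt PC, and to 151 to 196 CPM and 96.1 to 127 CPM in the respective spleens. The part of such cells in the results below was not tested, and in these unsorted samples fewer cells of a type and less RNA per cell cannot be told apart.

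Eif2ak4 lies on the forward strand of chromosome 2 (GRCm39, 118218950 to 118305868), where GENCODE lists 34 transcripts. The canonical transcript Eif2ak4-201 (ENSMUST00000005233) has 39 exons and codes for 1648 amino acids. Eif2ak4-205 (ENSMUST00000110872) and Eif2ak4-202 (ENSMUST00000102527) start 611 bases further downstream in a first exon of 35 bases, skip exon 3 of the canonical transcript (103 bases, chr2:118235528-118235630) and share the other 37 exons with it. In the annotation used here Eif2ak4-202 and Eif2ak4-205 have the same 38 exons and the same sequence, and differ only in the annotated start codon: the coding region of Eif2ak4-205 has 1527 codons, all in frame with the canonical protein and without its first 121 codons, and that of Eif2ak4-202 has 1536. The index against which the authors quantified was not examined, so how reads were divided between these 2 transcripts is uncertain and their sum is reported too.

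Among the sequences that separate the transcripts, beside their first exons, are the junctions at the end of exon 2. They are shown with 15 bases on each side, exon 2 in lower case and the exon that follows in capitals. The bases come from the GENCODE transcripts of GRCm39 on the forward strand. The first junction is present in Eif2ak4-201 and the second in Eif2ak4-202 and Eif2ak4-205. The skipped exon, which is coding in Eif2ak4-201, is shown whole.
Eif2ak4-201, exon 2 to exon 3: tacatacccagatgtAGTTCCCGAAATAGA
Eif2ak4-205, exon 2 to the exon after the skipped one: tacatacccagatgtGTGATGATATTTGAA
Skipped exon: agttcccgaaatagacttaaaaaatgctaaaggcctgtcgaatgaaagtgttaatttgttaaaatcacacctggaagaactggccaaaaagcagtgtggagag

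**Figure D1:**
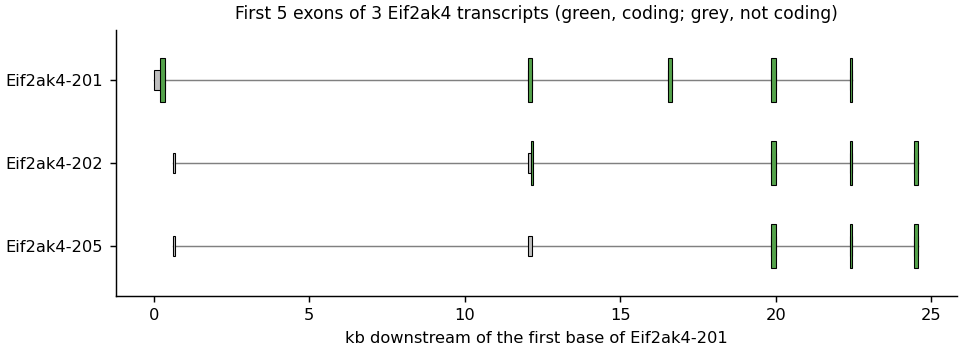
The first 5 annotated exons of Eif2ak4-201, Eif2ak4-202 and Eif2ak4-205 against the distance in kb from the first base of Eif2ak4-201, with coding parts in green, parts outside the coding region in grey and exons shorter than 60 bases widened to be visible. Eif2ak4-202 and Eif2ak4-205 share their exons, lack exon 3 of Eif2ak4-201 and differ only in where the coding part begins.

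The count of Eif2ak4-205 was 0 in all NFKBIE-ko samples of both tissues. In NFKBIE-wt spleen it was at 21.1, 32.4, 33.2 and 5.91 CPM, the last in the library that stood apart, and in NFKBIE-wt PC at 12.2, 15.2, 14.2 and 17.8 CPM. In vitro, it was at 19.2, 9.26 and 35.4 CPM in NFKBIE-wt and at 4.10, 0 and 4.91 CPM in NFKBIE-ko. The genotypes did not overlap in any compartment, with or without the libraries that stood apart. Against a floor of 3 counts per library, Eif2ak4-205 was at least 199-fold lower in NFKBIE-ko spleen (248-fold without the library that stood apart) and at least 119-fold lower in NFKBIE-ko PC. On the log2 scale with 0.5 CPM added, the NFKBIE-ko minus NFKBIE-wt difference was -5.31 (SE 0.56) in the spleen, -4.93 (SE 0.11) in the PC and -3.04 (SE 1.23) in vitro, where it was -2.58 (SE 1.22) without the library that stood apart. Since this transcript was the one chosen as lowest in NFKBIE-ko tissue, no test was made there.

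Eif2ak4-202, with the same exons, was also lower in NFKBIE-ko tissue but remained detected in 7 of 8 samples. It was at 12.5, 7.36, 11.1 and 9.66 CPM in NFKBIE-ko spleen against 29.5, 42.9, 44.0 and 21.7 CPM in NFKBIE-wt spleen. In the PC, it was at 5.66, 0, 14.8 and 4.82 CPM in NFKBIE-ko against 20.6, 15.3, 24.2 and 25.6 CPM in NFKBIE-wt. The genotypes overlapped in vitro, with 24.2, 17.1 and 17.3 CPM in NFKBIE-ko against 24.3, 15.7 and 31.6 CPM in NFKBIE-wt. The sum of both transcripts, which does not depend on how reads were divided between them, was 57.7 ± 23.4 CPM in the spleens of NFKBIE-wt and 10.1 ± 2.18 CPM in those of NFKBIE-ko (SD, n = 4 each), a difference of -2.37 (SE 0.38) on the same log2 scale. It was 36.3 ± 5.78 CPM in the PC of NFKBIE-wt and 6.31 ± 6.17 CPM in that of NFKBIE-ko (SD, n = 4 each), a difference of -3.20 (SE 1.06). In vitro, the sum was 45.1 ± 21.0 CPM for NFKBIE-wt against 22.5 ± 5.6 CPM for NFKBIE-ko (SD, n = 3 each), and the difference of -0.90 (SE 0.46) became -0.57 (SE 0.45) without the library that stood apart.

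The canonical transcript Eif2ak4-201 overlapped between genotypes in each compartment. It was at 29.6, 33.5, 29.7 and 36.2 CPM in NFKBIE-ko spleen and 32.5, 26.6, 42.1 and 60.5 CPM in NFKBIE-wt spleen, where the highest value belongs to the library that stood apart. In the PC, it ranged from 18.4 to 35.3 CPM in NFKBIE-ko and from 19.7 to 29.8 CPM in NFKBIE-wt, and in vitro from 35.0 to 46.3 CPM and from 35.0 to 39.7 CPM. The log2 differences were -0.26 (SE 0.26) in the spleen, 0.08 (SE 0.26) in the PC and 0.14 (SE 0.13) in vitro. Its share of all Eif2ak4 counts was therefore higher in NFKBIE-ko tissue, with a mean of 72.2% against 40.0% in the spleen and 79.3% against 40.9% in the PC, and the share of Eif2ak4-205 was 21.6% and 22.5% in NFKBIE-wt spleen and PC and 0% in NFKBIE-ko. The remaining 4 transcripts were minor: Eif2ak4-203 (ENSMUST00000110869), which has 8 exons, had a mean of 2.62 CPM over all samples and was at 1.34 to 1.92 CPM in NFKBIE-ko against 3.69 to 5.42 CPM in NFKBIE-wt spleen, whereas the other 3 averaged between 0.103 and 0.451 CPM.

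**Figure D2:**
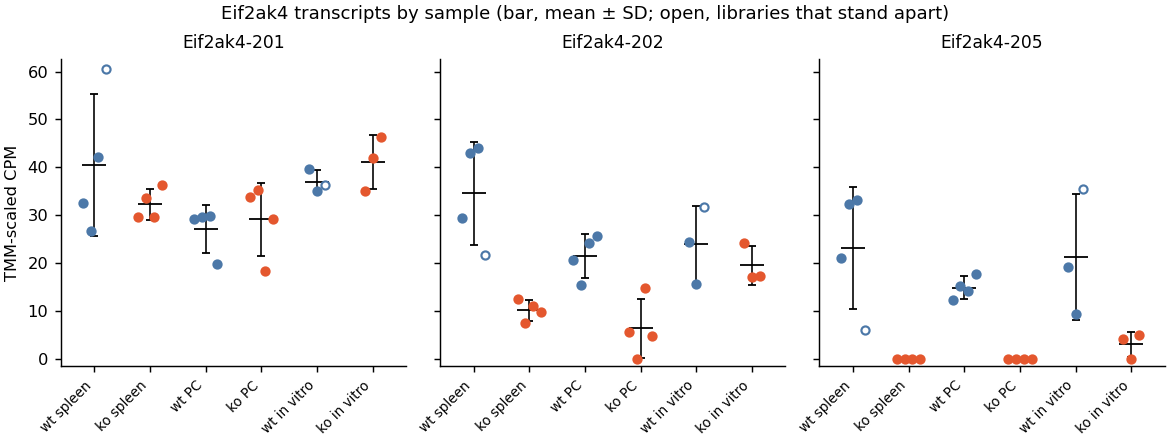
TMM-scaled CPM of Eif2ak4-201, Eif2ak4-202 and Eif2ak4-205 in each of the 22 samples (points) of the 6 groups, with the mean and SD (bars, ending at 0 where they would pass it) and open points for the 2 libraries that stood apart. Eif2ak4-205 is at 0 in all 8 NFKBIE-ko tissue samples, whereas Eif2ak4-201 overlaps between the genotypes in each compartment.

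Summed per gene, Eif2ak4 was highest in NFKBIE-wt spleen and lowest in NFKBIE-ko PC. It was at 93.2, 106, 134 and 94.7 CPM in NFKBIE-wt spleen and 44.8, 44.3, 42.2 and 47.3 CPM in NFKBIE-ko spleen, without overlap. In the PC, it was at 67.4, 64.5, 73.7 and 64.2 CPM in NFKBIE-wt and 40.7, 33.4, 33.0 and 33.4 CPM in NFKBIE-ko, again without overlap. The cultures overlapped, with 93.3, 61.9 and 116 CPM in NFKBIE-wt and 67.1, 61.4 and 72.6 CPM in NFKBIE-ko. The log2 fold change of NFKBIE-ko against NFKBIE-wt was -1.27 (SE 0.13) in the spleen, -0.95 (SE 0.09) in the PC and -0.44 (SE 0.23) in vitro, where edgeR's quasi-likelihood test gave a Benjamini-Hochberg adjusted p = 0.539 and, without the library that stood apart, -0.20 (SE 0.18, adjusted p = 0.739). Relative to the cultures, the genotype difference of Eif2ak4 was -0.83 (SE 0.22) in the spleen and -0.51 (SE 0.22) in the PC, and -1.1 (SE 0.20) and -0.75 (SE 0.20) without both libraries that stood apart. These values use the tissue contrast on which Eif2ak4 was selected and are given without a test.

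The second kinase gene of the list, Eif2ak3, was lower in NFKBIE-ko in each compartment. It was at 55.9, 63.1, 40.6 and 54.2 CPM in NFKBIE-ko against 63.8, 74.3, 79.1 and 71.8 CPM in NFKBIE-wt spleen, 55.9, 55.5, 63.3 and 63.9 CPM in NFKBIE-ko against 69.3, 79.1, 91.9 and 71.4 CPM in NFKBIE-wt PC, and 50.8, 51.1 and 51.7 CPM in NFKBIE-ko against 78.4, 61.7 and 87.8 CPM in NFKBIE-wt cultures. The genotypes did not overlap in any of the 3 compartments, but how often this happens over all genes was not counted. The log2 fold changes were -0.44 (SE 0.15) in the spleen, -0.40 (SE 0.10) in the PC and -0.57 (SE 0.14) in vitro, the last with an adjusted p = 0.441 by edgeR's quasi-likelihood test and at -0.44 (SE 0.11) without the library that stood apart. Per kb of transcript, Eif2ak4 was at 23.2 ± 4.46 and Eif2ak3 at 16.2 ± 1.69 CPM per kb in NFKBIE-wt spleen, and at 9.3 ± 0.435 and 12.1 ± 1.98 CPM per kb in NFKBIE-ko spleen (SD, n = 4 each). In the PC, these levels were 14.3 ± 0.41 and 17.5 ± 1.95 CPM per kb for NFKBIE-wt and 7.53 ± 0.60 and 14.3 ± 1.41 CPM per kb for NFKBIE-ko (SD, n = 4 each).

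The other kinases and partners of GCN2 came from a list chosen with earlier results of these data known. Eif2ak1, the heme-regulated kinase, was at a log2 fold change of NFKBIE-ko against NFKBIE-wt of -0.39 (SE 0.14), -0.42 (SE 0.07) and -0.61 (SE 0.22) in the spleen, PC and cultures, and Eif2ak2, the kinase activated by double-stranded RNA, was at -0.15 (SE 0.25), -0.03 (SE 0.11) and 0.02 (SE 0.24). Without both libraries that stood apart, Eif2ak1 was at -0.48 (SE 0.12) in the spleen and -0.40 (SE 0.19) in vitro, and Eif2ak2 turned sign in both, to 0.07 (SE 0.22) and -0.14 (SE 0.22). Gcn1, which activates GCN2 on stalled ribosomes, was at -0.23 (SE 0.12), -0.43 (SE 0.10) and -0.21 (SE 0.13). Impact, a competitor of GCN2 for binding to GCN1, was at 53.9 ± 4.37 CPM in NFKBIE-wt and 32.3 ± 0.95 CPM in NFKBIE-ko PC (SD, n = 4 each) and at 43.0 ± 3.74 and 42.4 ± 0.85 CPM in the respective cultures (SD, n = 3 each). The genotype effect on Impact in the PC minus that in vitro was -0.72 on the log2 scale (SE 0.17), and -0.71 without both libraries that stood apart.

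Atf4, the central transcription factor of the response, was the most abundant of the regulators. In the spleen, it was at 575, 563, 511 and 517 CPM in NFKBIE-ko against 379, 636, 467 and 261 CPM in NFKBIE-wt, and the genotypes overlapped. In the PC, NFKBIE-ko samples at 189, 205, 204 and 187 CPM all lay below NFKBIE-wt samples at 297, 416, 253 and 330 CPM. The cultures did not overlap either, with 207, 211 and 210 CPM in NFKBIE-ko against 239, 285 and 402 CPM in NFKBIE-wt. The log2 fold changes of NFKBIE-ko against NFKBIE-wt were 0.31 (SE 0.23), -0.73 (SE 0.13) and -0.57 (SE 0.20) in the spleen, PC and cultures, the last with an adjusted p = 0.516 by edgeR's quasi-likelihood test. Atf4 without the libraries that stood apart was at 0.13 (SE 0.17) in the spleen and -0.32 (SE 0.09, adjusted p = 0.372 by edgeR's quasi-likelihood test) in vitro.

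Ddit3, which encodes CHOP, was also lowest in NFKBIE-ko PC and NFKBIE-ko cultures. Its levels overlapped in the spleen, at 29.5, 51.2, 25.4 and 29.2 CPM in NFKBIE-ko against 24.3, 65.5, 41.7 and 10.7 CPM in NFKBIE-wt. In the PC, it was at 8.02, 6.83, 7.44 and 6.85 CPM in NFKBIE-ko, below all NFKBIE-wt samples (24.7, 36.9, 10.3 and 16.4 CPM). In vitro, it was at 6.72, 7.16 and 6.11 CPM in NFKBIE-ko, below 14.5, 11.8 and 35.4 CPM in NFKBIE-wt, where the highest value came from the library that stood apart. The log2 fold change was -0.08 (SE 0.47) in the spleen, -1.61 (SE 0.35) in the PC and -1.64 (SE 0.44) in vitro (edgeR's quasi-likelihood test, adjusted p = 0.468). Ddit3 without the libraries that stood apart was at -0.38 (SE 0.34) in the spleen, still with overlap, and at -0.98 (SE 0.15, adjusted p = 0.139 by edgeR's quasi-likelihood test) in vitro.

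Trib3, a pseudokinase that restrains ATF4, and Chac1, which degrades glutathione, were low in all groups. Trib3 was at 0.996, 0.276, 0.714 and 0.761 CPM in NFKBIE-ko against 1.85, 2.19, 1.83 and 6.92 CPM in NFKBIE-wt spleen, without overlap. It was at 0.57, 2.14, 1.79 and 1.38 CPM in NFKBIE-ko against 2.22, 3.02, 2.46 and 3.72 CPM in NFKBIE-wt PC, also without overlap. In the cultures, 2.03, 2.62 and 1.78 CPM in NFKBIE-ko overlapped with NFKBIE-wt (5.51, 9.14 and 2.06 CPM) only through the library that stood apart. The log2 fold changes of Trib3 were -2.22 (SE 0.58), -0.97 (SE 0.35) and -1.38 (SE 0.54) in the spleen, PC and cultures, and -1.5 (SE 0.41) in the spleen and -1.77 (SE 0.31) in vitro without the libraries that stood apart.

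Chac1 was at 1.19, 0.118, 1.03 and 0.381 CPM in NFKBIE-ko against 1.49, 1.13, 1.29 and 6.19 CPM in NFKBIE-wt spleen, where a single NFKBIE-ko sample reached above the lowest NFKBIE-wt sample. In the PC, NFKBIE-ko samples (0.418, 1.19, 1.02 and 0.95 CPM) lay below NFKBIE-wt samples (2.63, 1.91, 1.99 and 3.38 CPM). In vitro, Chac1 was at 1.99, 2.00 and 0.991 CPM in NFKBIE-ko against 5.91, 5.68 and 1.24 CPM in NFKBIE-wt, with overlap through the library that stood apart at 1.24 CPM. The log2 fold changes of Chac1 were -1.90 (SE 0.79), -1.48 (SE 0.33) and -1.36 (SE 0.63), and -0.93 (SE 0.62) in the spleen and -1.79 (SE 0.35) in vitro without the libraries that stood apart.

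Asns, the asparagine synthetase and a standard ATF4 target, was highest in 3 of the NFKBIE-wt spleens and in the culture that stood apart. In NFKBIE-wt spleen it was at 3.78, 10.0 and 5.34 CPM and at 0 in the library that stood apart, whereas NFKBIE-ko spleen was at 1.11, 0.158, 0.714 and 0.685 CPM. PC samples of both genotypes were between 0.159 and 0.385 CPM (4 to 9 counts). NFKBIE-ko cultures held 0 counts, and NFKBIE-wt cultures were at 0.442, 0 and 8.95 CPM, the last in the library that stood apart, without which the NFKBIE-wt mean was 0.221 CPM. Asns was at a log2 fold change of -2.83 (SE 1.15) in the spleen, and -3.25 (SE 0.54) without the library that stood apart. Slc7a11, the cystine transporter, was at 0 counts in all 6 cultures and at most 11 counts in any tissue sample (0.471 CPM), so no genotype difference was detectable at this depth.

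The serine synthesis genes Psat1 and Phgdh were abundant in all groups. Psat1 was at 228, 160, 244 and 241 CPM in NFKBIE-ko against 212, 183, 171 and 243 CPM in NFKBIE-wt spleen, from 99.6 to 132 CPM in NFKBIE-ko against 107 to 129 CPM in NFKBIE-wt PC, and from 185 to 201 CPM in NFKBIE-ko against 156 to 236 CPM in NFKBIE-wt cultures. The genotypes overlapped in all 3 compartments, with log2 fold changes of 0.10 (SE 0.17), -0.10 (SE 0.10) and -0.08 (SE 0.16), and 0.21 (SE 0.16) in the spleen and -0.23 (SE 0.07) in vitro without the libraries that stood apart. Phgdh was at 624, 453, 829 and 796 CPM in NFKBIE-ko against 486, 595, 453 and 507 CPM in NFKBIE-wt spleen. In the PC, its range was 329 to 381 CPM in NFKBIE-ko against 382 to 456 CPM in NFKBIE-wt, which adjoin without overlap. In the cultures it was 435 to 473 CPM in NFKBIE-ko against 398 to 530 CPM in NFKBIE-wt, and the log2 fold changes of Phgdh were 0.40 (SE 0.19), -0.21 (SE 0.08) and -0.01 (SE 0.12).

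**Figure D3:**
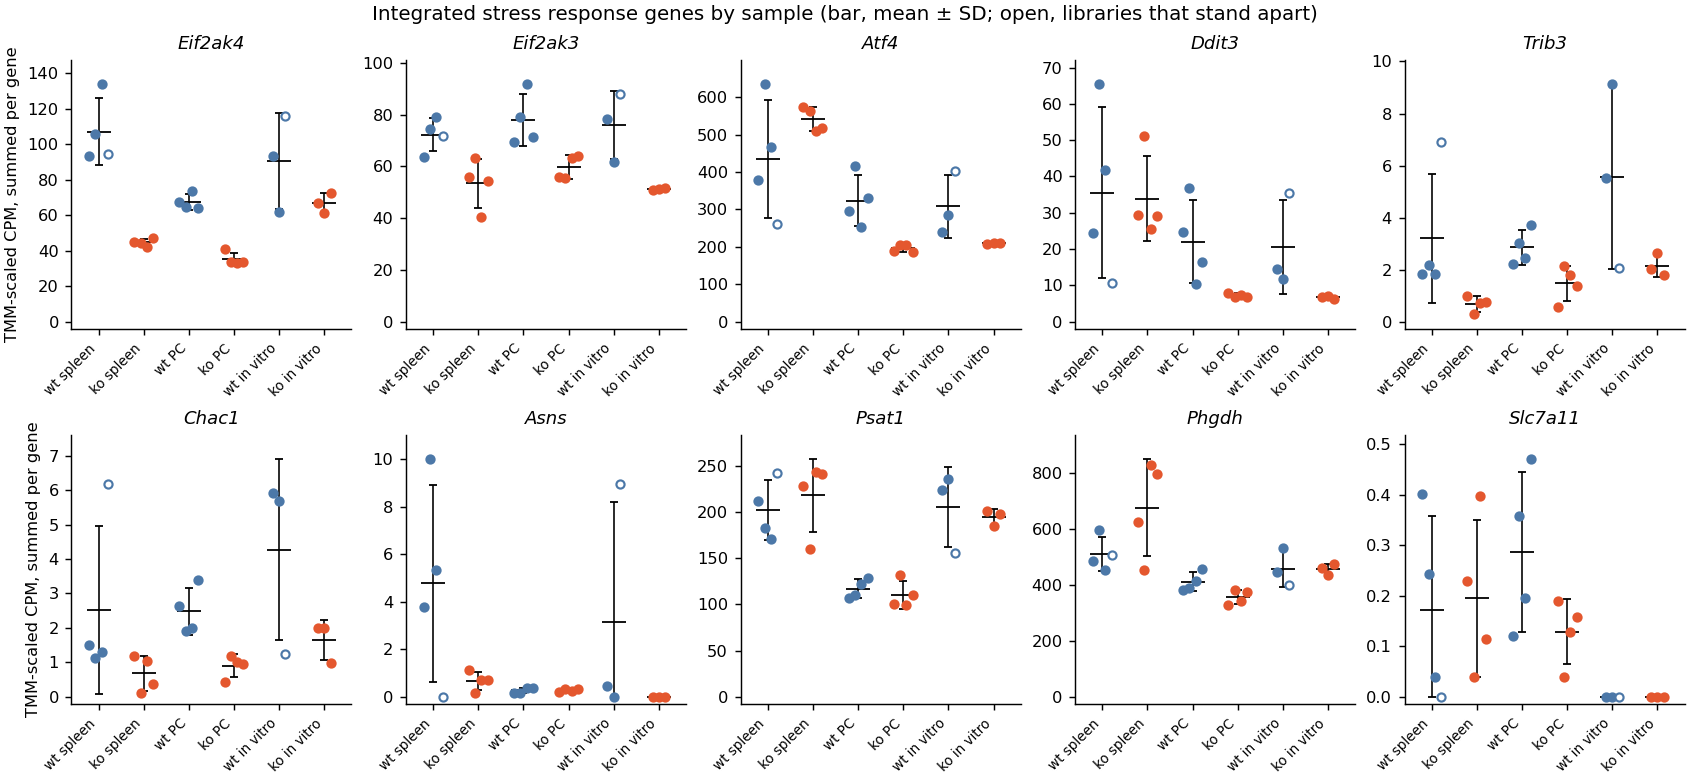
TMM-scaled CPM, summed per gene, of the 10 genes in each of the 22 samples (points) by group, with the mean and SD (bars, ending at 0 where they would pass it), a separate linear axis for each gene and open points for the 2 libraries that stood apart. Eif2ak4 separates the genotypes in both tissues, Atf4 and Ddit3 are lower in NFKBIE-ko PC than in NFKBIE-wt PC and overlap in the spleen, and Asns is highest in NFKBIE-wt spleen.

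A gene was called when edgeR's quasi-likelihood test gave a Benjamini-Hochberg adjusted p below 0.05 over all genes tested together with a log2 fold change above 1 or below -1. Between genotypes in the spleen, 8 of the 9 genes other than Eif2ak4 passed the filter on low counts (all but Slc7a11) and 0 were called, against 1.41% of all 12219 genes called higher and 1.60% called lower. Of the 8, 3 (Asns, Chac1 and Trib3) had an unadjusted p below 0.05 with that fold, and DESeq2 called 1, Trib3. Without the library that stood apart, 2 were called lower, Asns and Trib3, against 3.05% of genes called higher and 3.34% lower. In the PC, 7 of the 9 passed the filter (not Asns and Slc7a11) and 2 were called lower, Ddit3 and Chac1, against 9.96% of genes called higher and 3.49% lower. These counts come from the contrast on which the genes were selected, and nothing was read from them. The median log2 fold change of the genes tested was -0.26 in the spleen and -0.73 in the PC, where that of all genes was -0.01 in each. These medians come from the same contrasts and are likewise only a description.

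In vitro, 8 of 10 genes were tested and 0 were called, against 0.0427% of 11722 genes called higher and 0% lower. Here 2 genes, Ddit3 and Trib3, had an unadjusted p below 0.05 with the fold, and DESeq2 called Ddit3. Without the library that stood apart, 0 were called, against 0.0591% of genes called higher and 0.0169% lower, with an unadjusted p below 0.05 for Chac1 and Trib3. With all libraries, the log2 fold changes of the 8 genes ranged from -1.64 for Ddit3 to -0.01 for Phgdh, with a median of -0.57 against -0.02 for all genes. The share of all genes below 0 was not counted. Among NFKBIE-wt cultures, the library that stood apart held the highest values of Eif2ak4, Eif2ak3, Atf4 and Ddit3. It also held the lowest of Trib3, Chac1, Psat1 and Phgdh. Per transcript, 18 of the members' transcripts were tested in vitro and 0 were called, as was the case for 0% of the 33361 transcripts tested and 0% of the 35409 tested without the library that stood apart. Of the 18, 2 had an unadjusted p below 0.05 with the fold, and DESeq2 called 1. Eif2ak4-205 was at -2.86 (SE 1.36, adjusted p = 0.863 by edgeR's quasi-likelihood test) in that fit and Eif2ak4-201 at 0.13 (SE 0.14).

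**Figure D4:**
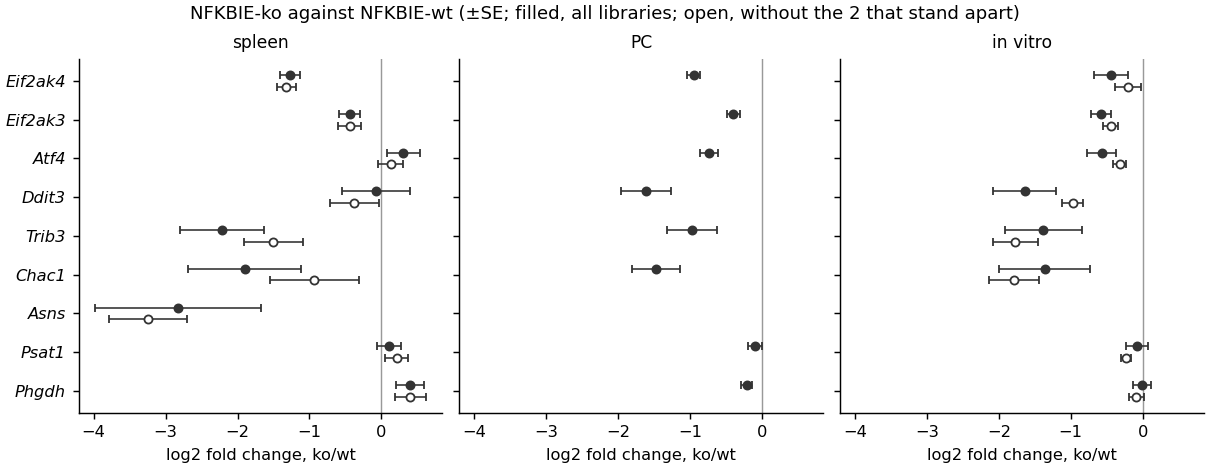
Log2 fold change of NFKBIE-ko against NFKBIE-wt (x axis, ± SE from edgeR) of 9 genes in the spleen, PC and in vitro, with filled points for all libraries and open points without the 2 libraries that stood apart; Asns was not tested in the PC and in vitro. Eif2ak4 lies at -1.27 in the spleen and -0.95 in the PC, while Psat1 and Phgdh lie within 0.40 of 0 throughout.

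The compartments were compared within each genotype in a fit of all 22 samples, in which all 10 genes were tested. These comparisons share groups, since spleen samples enter 2 of them, so their values are given side by side. Spleen and PC cells of a genotype came from the same set of recipient mice, and their samples were treated as separate. In the PC against the spleen, Atf4 and Ddit3 fell in NFKBIE-ko samples, by 1.46 (SE 0.21, edgeR's quasi-likelihood test, adjusted p = 9.69e-06) and by 2.21 on the log2 scale (SE 0.47, edgeR's quasi-likelihood test, adjusted p = 0.000666). These were the 2 genes called lower of 10, with 0 called higher, against 14.2% of 13538 genes called higher and 5.93% lower. In NFKBIE-wt samples, Asns fell by 4.16 (SE 1.34, edgeR's quasi-likelihood test, adjusted p = 0.0234) and was the 1 gene called, against 8.66% called higher and 4.19% lower. This call was lost when replicate 1 or 2 of NFKBIE-wt PC, or replicate 2 of NFKBIE-wt spleen, was left out. Atf4 was at -0.43 (SE 0.20) and Ddit3 at -0.69 (SE 0.45) in that comparison, neither past the threshold. Without the libraries that stood apart, Asns was again the 1 gene called in NFKBIE-wt (-4.56, SE 0.67), against 9.89% of genes higher and 4.78% lower. Atf4 (-0.59, SE 0.15) and Ddit3 (-0.98, SE 0.34) passed the adjusted p of edgeR's quasi-likelihood test in that fit (adjusted p = 0.00499 and adjusted p = 0.0321) below the fold of a call.

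Below the fold of a call, Psat1 passed the adjusted p for the PC against the spleen in both genotypes, and Phgdh in NFKBIE-ko. Psat1 was at -0.79 (SE 0.15) in NFKBIE-wt and -0.98 (SE 0.15) in NFKBIE-ko, with an adjusted p = 0.000440 and an adjusted p = 2.15e-05 by edgeR's quasi-likelihood test. Phgdh was at -0.92 (SE 0.15, edgeR's quasi-likelihood test, adjusted p = 3.47e-05) in NFKBIE-ko and -0.32 (SE 0.14, adjusted p = 0.0985) in NFKBIE-wt. Eif2ak4 was at -0.67 (SE 0.15) in NFKBIE-wt and -0.35 (SE 0.15) in NFKBIE-ko. Both values are given without a p-value, because tissue samples of both genotypes entered the contrast on which Eif2ak4 was selected. Eif2ak3 was at 0.11 (SE 0.13) in NFKBIE-wt and 0.16 (SE 0.13) in NFKBIE-ko. Trib3 in NFKBIE-ko was 1.09 higher in the PC (SE 0.53, adjusted p = 0.0913 by edgeR's quasi-likelihood test) and passed the threshold without the libraries that stood apart (1.08, SE 0.38, adjusted p = 0.0208). Markers of macrophages and monocytes also differed between these compartments, with sums of 96.5 to 358 CPM in NFKBIE-ko spleen and 28.9 to 87.0 CPM in NFKBIE-wt spleen against the PC values above, and their part in these differences was not tested.

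Atf4 and Ddit3 were higher in NFKBIE-ko spleen samples than in NFKBIE-ko cultures. The log2 fold change of the spleen against the cultures was called for Atf4 (1.37, SE 0.23, edgeR's quasi-likelihood test, adjusted p = 0.000606) and Ddit3 (2.34, SE 0.53, edgeR's quasi-likelihood test, adjusted p = 0.00384), and, in the lower direction, for Trib3 (-1.63, SE 0.56, adjusted p = 0.0332 by edgeR's quasi-likelihood test). Asns and Slc7a11 were called higher as well, with 0 counts in the cultures: Asns was at least 5.68-fold higher in the spleen against a floor of 3 counts per library, and Slc7a11 at least 1.66-fold. Slc7a11 passed the filter on low counts only through tissue samples, so a call of it could only be in the higher direction. In all, 4 of 10 genes were called higher and 1 lower, against 8.26% of genes higher and 5.20% lower. The 4 include Slc7a11, whose direction was fixed, so nothing is read from this count. Directions differed within the targets, with Asns higher and Trib3 lower in the spleen, and Chac1 at -1.28 (SE 0.69) did not pass the threshold. Leaving out single libraries reduced the 5 calls to between 2 and 4, with 2 left without any of the 3 NFKBIE-ko cultures or replicate 3 of NFKBIE-ko spleen, and 3 without its replicate 4. The marker sums of other cells differed between these groups as well: granulocytes were at 86.5 to 236 CPM in NFKBIE-ko spleen and 0 to 0.113 CPM in the cultures, cytotoxic lymphocytes at 34.9 to 98.1 and 1.11 to 2.18 CPM, and erythroid cells at 58.9 to 902 and 20.1 to 25.5 CPM. Their part in these differences was not tested.

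In NFKBIE-wt samples the same comparison gave 0 calls with all libraries, where 0% of genes were called higher and 0% lower. The unadjusted p was below 0.05 with the fold for Slc7a11 alone, and DESeq2 called 0. Without the libraries that stood apart, 5 genes were called, 3 higher and 2 lower, against 7.41% of genes higher and 5.24% lower. By edgeR's quasi-likelihood test in that fit, Ddit3 rose by 1.77 (SE 0.44, adjusted p = 0.00694), Asns by 4.88 (SE 0.92, adjusted p = 0.00105) and Slc7a11 from 0 counts to at least 1.96-fold the floor, while Chac1 fell by 2.12 (SE 0.55, adjusted p = 0.00849) and Trib3 fell by 1.87 (SE 0.44, adjusted p = 0.00417). The direction for Slc7a11 was again fixed, since it passed the filter only through tissue samples, so nothing is read from a count that includes it. Atf4 was 0.95 higher (SE 0.19, adjusted p = 0.00123 by edgeR's quasi-likelihood test), just under the fold of a call.

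In the PC against the cultures, the 1 gene called in each genotype was Slc7a11, at least 2.47-fold higher in NFKBIE-wt and at least 1.1-fold higher in NFKBIE-ko against the floor, a range of 1 to 11 counts per PC sample. Since Slc7a11 passed the filter on low counts only through tissue samples, the direction of both calls was fixed and nothing is read from them. The background was 7.65% of genes higher and 5.36% lower in NFKBIE-wt, and 15.3% higher and 5.55% lower in NFKBIE-ko. Atf4 was at 0.07 (SE 0.22) and -0.09 (SE 0.22), and Ddit3 at 0.10 (SE 0.48) and 0.13 (SE 0.50), in NFKBIE-wt and NFKBIE-ko. In NFKBIE-wt they were at 0.35 (SE 0.18) and 0.79 (SE 0.41) without the libraries that stood apart. Psat1 was lower in the PC in both, at -0.81 (SE 0.16, edgeR's quasi-likelihood test, adjusted p = 0.000777) and -0.82 (SE 0.16, adjusted p = 0.000329). Eif2ak4 was at -0.43 (SE 0.16) in NFKBIE-wt, which became -0.15 (SE 0.14) without the libraries that stood apart. In NFKBIE-ko it was at -0.93 (SE 0.16). These values are given without a p-value, because tissue samples of both genotypes entered the contrast on which Eif2ak4 was selected. In the fit without these libraries Trib3 was called lower in NFKBIE-wt PC (-1.31, SE 0.40, edgeR's quasi-likelihood test, adjusted p = 0.0138), against 12.6% of genes higher and 5.81% lower.

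**Figure D5:**
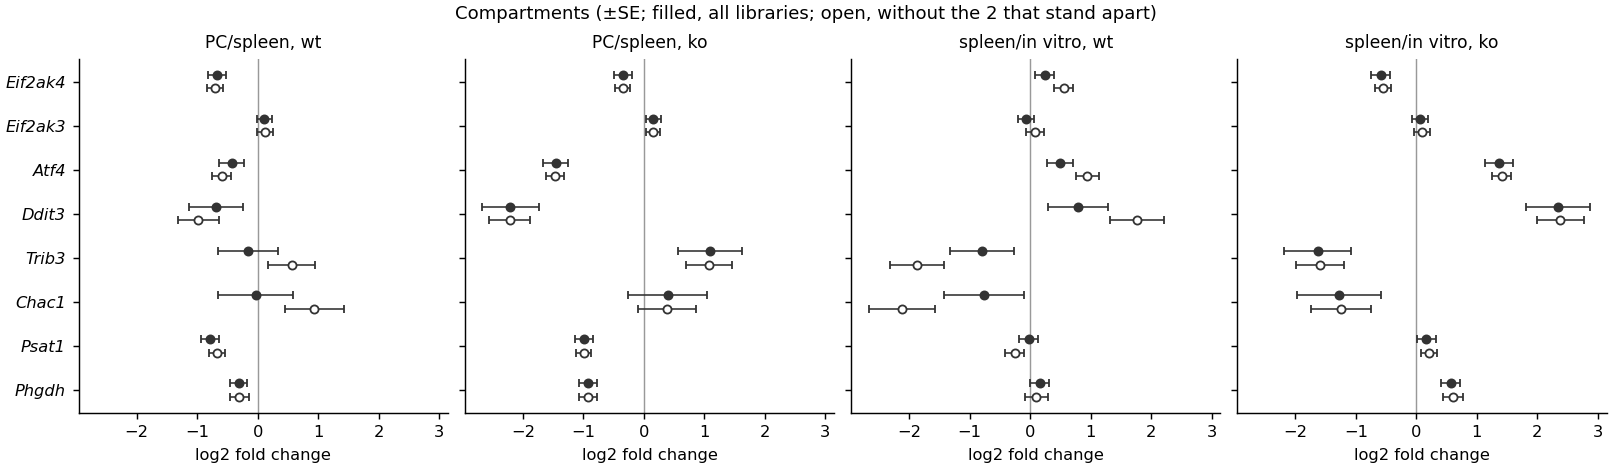
Log2 fold change (x axis, ± SE from edgeR) of 8 genes in the PC against the spleen and in the spleen against the cultures, within each genotype, with filled points for all libraries and open points without the 2 libraries that stood apart; Asns and Slc7a11 are left out because groups at 0 give no fold. In NFKBIE-ko, Atf4 and Ddit3 are lower in the PC than in the spleen (-1.46 and -2.21) and higher in the spleen than in vitro (1.37 and 2.34), while Trib3 takes the opposite sign.

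The genotype effects of the compartments were also set against each other as a difference of differences, with a gene called on the adjusted p alone. All 3 such differences use the tissue contrasts on which the genes were selected, so the values and counts are a description and nothing was read from them. For spleen minus PC, Atf4 was at 1.04 (SE 0.29) on the log2 scale and was the 1 of 9 genes called, against 4.90% of all genes. Without the libraries that stood apart, Atf4 was at 0.87 (SE 0.21) and Asns at -3.26 (SE 0.94), and both were called, against 8.23% of all genes. Ddit3 was at 1.53 (SE 0.64) with all libraries and was not called. Of the 16 fits that each left out 1 library of these groups, 13 called 0 genes, and the fit without NFKBIE-ko spleen replicate 2 called 2. For spleen minus in vitro and PC minus in vitro, 0 of 9 genes were called by edgeR's quasi-likelihood test, against 0.443% and 4.90% of all genes. In the first of these, 3 genes (Atf4, Ddit3 and Asns) had an unadjusted p below 0.05 and DESeq2 called 0, and in the second 1 gene (Asns) had and DESeq2 called it. Without the libraries that stood apart, 0 of the 9 were called in either, against 0.938% and 6.10% of all genes, with an unadjusted p below 0.05 for Psat1 in the first and Asns in the second.

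Around the 10 genes, 7 lists with 94 further genes of the pathway were followed: partners of the eIF2 kinases, feedback and stress regulators, amino acid and one-carbon synthesis, amino acid transport, aminoacyl-tRNA synthetases, the unfolded protein response and glutathione. Between genotypes in the spleen, 0 of 89 tested were called higher and 3 lower, against 1.41% and 1.60% of all genes, with a median log2 fold change of 0.04: Cth, the cystathionine gamma-lyase (-2.24, SE 0.51), the glycine transporter Slc6a9 (-1.98, SE 0.27) and Atf5 (-1.08, SE 0.23). Without the library that stood apart, 1 of 90 was called higher, the protein disulfide isomerase Pdia6 (1.84, SE 0.36), and 2 lower, Slc6a9 (-1.87, SE 0.26) and Cth (-1.56, SE 0.32), against 3.05% and 3.34% of all genes. In the PC, 2 of 90 were called higher and 7 lower, against 9.96% and 3.49% of all genes, with a median of -0.07. The highest were Vldlr (3.53, SE 0.77) and Slc43a1 (2.87, SE 0.48), and the lowest were Ppp1r15a, the phosphatase subunit that reverses eIF2 phosphorylation (-2.45, SE 0.61), Gadd45a (-2.05, SE 0.27) and Cth (-1.57, SE 0.38). In vitro, 0 of 91 were called by edgeR's quasi-likelihood test, 4 had an unadjusted p below 0.05 with the fold and DESeq2 called 2, against 0.0427% of all genes called higher and 0% lower, with a median of -0.10. The spleen and PC counts come from the contrasts on which the 10 genes were selected, and nothing was read from them.

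Between compartments, the feedback and stress regulators held most of the named genes. Atf3, a transcription factor induced by ATF4, was at 37.9 to 66.9 CPM in NFKBIE-ko spleen, 10.8 to 14.4 CPM in NFKBIE-ko PC and 0 to 0.6 CPM in NFKBIE-ko cultures. Ppp1r15a was at 285 to 477 CPM, 24.8 to 68.9 CPM and 16.6 to 19.1 CPM in the same groups. In the PC against the spleen of NFKBIE-ko samples, Ppp1r15a fell by 3.21 (SE 0.79, edgeR's quasi-likelihood test, adjusted p = 0.00223) and Atf3 fell by 2.10 (SE 0.83, adjusted p = 0.0417), whereas Nupr1 rose by 3.4 (SE 0.46, adjusted p = 6.63e-06) and the heme oxygenase Hmox1 rose by 2.65 (SE 0.38, adjusted p = 1.24e-05). In that comparison 8 of 93 genes were called higher and 7 lower, against 14.2% and 5.93% of all genes, with a median of -0.36 against -0.00 for all genes. In NFKBIE-wt, Nupr1 rose by 3.35 (SE 0.47, edgeR's quasi-likelihood test, adjusted p = 2.59e-05) and Hmox1 by 1.99 (SE 0.37, adjusted p = 0.000414) in the PC, where 4 of 93 were called higher and 2 lower, against 8.66% and 4.19% of all genes. These counts were 8 and 1 without the libraries that stood apart, against 9.89% and 4.78%. The markers of macrophages and monocytes were also higher in the PC than in the spleen of each genotype, and the part of these cells was not tested.

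In the spleen against the cultures of NFKBIE-ko, Ppp1r15a rose by 4.40 (SE 0.95, edgeR's quasi-likelihood test, adjusted p = 0.00293) and Cebpb by 2.66 (SE 0.51, adjusted p = 0.00153), while Cth fell by 1.62 (SE 0.46, adjusted p = 0.0130), and 6 of 93 genes were called higher and 2 lower, against 8.26% and 5.20% of all genes. In NFKBIE-wt, 0 of 93 were called with all libraries (0 at an unadjusted p below 0.05 with the fold, 0 by DESeq2), and 8 higher and 5 lower without the libraries that stood apart, against 7.41% and 5.24% of all genes, among them Atf3 (4.17, SE 0.72) and Ppp1r15a (3.57, SE 0.59) higher and Gdf15 (-2.26, SE 0.47) lower. In the PC against the cultures, 5 of 93 were called higher and 4 lower in NFKBIE-wt, against 7.65% and 5.36% of all genes, and 7 higher and 5 lower in NFKBIE-ko, against 15.3% and 5.55%. In NFKBIE-wt, 8 were called higher and 3 lower without the libraries that stood apart, against 12.6% and 5.81%. For the difference of genotype effects between spleen and PC, again a description, 2 of 93 genes were called (DESeq2 called 9), against 4.90% of all genes: Hspa5, the main chaperone of the endoplasmic reticulum, at 1.21 (SE 0.30) and Slc6a9 at -1.38 (SE 0.36). In the fit without the libraries that stood apart, 7 were called higher and 1 lower, against 8.23% of all genes. Hspa5 was at 437 to 542 CPM in NFKBIE-ko PC and 569 to 1410 CPM in NFKBIE-wt PC, and at 1080 to 1630 CPM and 813 to 1200 CPM in the respective spleens.

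The promoters of the 10 genes were searched for TGATGNAA, the form of the element bound by C/EBP and ATF factors, on both strands, in RefSeq windows of GRCm38.p6 from 250 bases before to 50 bases after the start. It was found for 4 genes, Asns, Chac1, Trib3 and Slc7a11, and for none of the other 6, whereas 4.51% of the 27025 genes with a window hold it in at least 1 window (3.97% of the 32851 windows). The matches are shown to give the letters behind this count, and a match is a description and not a site. Each stretch is printed in the direction of the gene with the match in capitals, and a match on the opposite strand reads as its reverse complement.
Asns, chr6:7693214-7693243, reverse strand, 23 bases before the start: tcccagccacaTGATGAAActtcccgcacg
Chac1, chr2:119351038-119351067, forward strand, 193 bases before the start: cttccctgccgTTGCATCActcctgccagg
Trib3, chr2:152344028-152344057, reverse strand, base 15 after the start: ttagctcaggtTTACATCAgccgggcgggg
Slc7a11, chr3:50443661-50443690, reverse strand, 66 bases before the start: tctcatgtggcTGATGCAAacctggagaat
Slc7a11, chr3:50443642-50443671, reverse strand, 47 bases before the start: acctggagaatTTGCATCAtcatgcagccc

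Of 26654 transcripts of other genes with a mean of at least 1 CPM, the 5 most like Eif2ak4-205 over the 22 samples on the log2 scale belonged to Endou (Pearson's r of 0.899), Dnah1 (0.895), Noct (0.894), Ccdc167 (0.893) and Krit1 (0.891), while Eif2ak4-202 had an r of 0.686. These coefficients share the samples and mainly follow the groups: the Endou transcript was at 12.4, 10.4 and 13.6 CPM in NFKBIE-wt spleen, PC and cultures and at 3.68, 1.72 and 5.5 CPM in NFKBIE-ko. With group means removed, the 5 highest were other transcripts, of Myof (0.831), Mlxip (0.823), Acp5 (0.81), Cirbp (0.801) and Nit1 (0.788), and Eif2ak4-202 was at 0.214.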

How the data were processed

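Bulk RNA-seq of 22 samples was analysed. The deposited table holds estimated counts per transcript, which the authors made with Salmon 1.8 against GRCm39 before running DESeq2 on them; 69.5% of the values are not whole. Counts were assigned to genes with GENCODE (0.619% of the counts matched no transcript there), summed per gene and rounded. Genes were tested with edgeR 4.0.16 (R 4.3.3; filterByExpr, TMM, quasi-likelihood test, Benjamini-Hochberg adjustment over all genes tested), between genotypes within each compartment and, for the other comparisons, in a fit of all 22 samples. A call required an adjusted p below 0.05 and, except for differences of genotype effects, a log2 fold change beyond 1. Levels are TMM-scaled CPM, and single transcripts were compared as log2(CPM + 0.5), a scale that understates changes of low transcripts. The procedure was tested on simulated data. In counts shaped like the PC contrast (12555 genes), 100% of 200 genes changed by a log2 fold of 2 were called. The changed genes were drawn only from those above a minimum mean count, and all genes were given the same dispersion. Recovery of genes with lower counts or a wider spread was therefore not tested.

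The 10 genes and all lists were chosen with earlier results of these data known. Named are the 10 genes, all Eif2ak4 transcripts, in each comparison up to 3 called genes per direction of the wider lists by size of change, the eIF2 kinases with Gcn1 and Impact, Nfkbie, and the 5 transcripts most like Eif2ak4-205. The alternatives were DESeq2 1.42.0, DESeq2 size factors, no filter on low counts, a replicate block, protein-coding transcripts only, other sample sets in the fit, a pseudocount of 0.1 CPM and leaving out each library. Leaving out both libraries that stood apart and summing the 2 Eif2ak4 transcripts were chosen after seeing the data. Floors of 3 counts per library cover counting error only. Replicates differed by more than sampling noise in every pair, so none was taken as a repeat of another. The labels place the 2 genotypes in groups, although the description of NFKBIE-ko samples opens with the name NFKBIE-wt.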

Additional observations from a re-analysis of the deposited data

Results flagged for a closer look

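Of 50 groups of 4 samples, 5 held a sample far from the others, where chance marks about 1 in 20 groups. Eif2ak4 was at 40.7 CPM in NFKBIE-ko PC replicate 1 against 33.0 to 33.4 CPM in the other samples of the group. Ddit3 was at 51.2 CPM in NFKBIE-ko spleen replicate 2 against 25.4 to 29.5 CPM. Chac1 was at 6.19 CPM in NFKBIE-wt spleen replicate 4 against 1.13 to 1.49 CPM, and Trib3 at 6.92 CPM in the same library against 1.83 to 2.19 CPM. This is the spleen library that stood apart, with markers of granulocytes at 0.116 CPM in sum, and the part of that in both values was not tested. Eif2ak4-201 was at 19.7 CPM in NFKBIE-wt PC replicate 4 against 29.2 to 29.8 CPM. Between compartments, the genotype effect on Atf4 was 1.04 higher on the log2 scale in the spleen than in the PC, and edgeR called this difference. It uses the tissue contrasts on which the genes were selected and is a description; 13 of 16 fits that left out 1 library each lost this call.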

How the results depend on the processing

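Of 271 alternatives over the 19 main results, 213 kept the direction and the side of the threshold (for counts of calls, within 1.5 times), 58 did not and 0 turned a direction. The cause was not tested for any of them, unless the alternative itself takes out samples or transcripts. The number of genes called (leaving Eif2ak4 out wherever tissue genotype contrasts enter) between genotypes in the spleen (0) became 1 with DESeq2, 1 in the fit of all 22 samples, 2 without both libraries that stood apart, and 0 to 2 when each library was left out. In the PC (2) it became 1 in the fit of all 22 samples and was 2 to 3 with libraries left out. In vitro (0) it became 1 with DESeq2, for genes and for transcripts. For the PC against the spleen, it became 0 in NFKBIE-wt in a fit of the 2 groups alone (0 to 1 with libraries left out), and was 2 to 4 in NFKBIE-ko with libraries left out, with 4 without NFKBIE-ko spleen replicate 2. For the spleen against the cultures, it became 5 in NFKBIE-wt without both libraries that stood apart and was 2 to 4 in NFKBIE-ko with libraries left out. For the PC against the cultures (1 in each genotype), it became 2 with DESeq2 and without both libraries that stood apart, and 0 with protein-coding transcripts only and in a fit of the 2 groups alone, in both genotypes. With libraries left out it was 0 to 2 in NFKBIE-wt and 0 to 1 in NFKBIE-ko. For the difference of genotype effects between spleen and PC, it became 2 without both libraries that stood apart and was 0 to 2 with libraries left out. For the PC minus in vitro, it became 1 with DESeq2 and was 0 to 1 with libraries left out.

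The log2 difference of Eif2ak4-205 was -7.59 in the spleen and -7.21 in the PC with a pseudocount of 0.1 CPM, and -2.37, -3.20 and -0.90 in the spleen, PC and cultures for the sum with Eif2ak4-202. With libraries left out it was -5.85 to -5.05, -5.01 to -4.84 and -3.65 to -1.93. Its share of the gene differed by -31.6 and -37.1 percentage points in the spleen and PC for the sum, and by -26.6 to -18.7, -23.8 to -21.0 and -22.2 to -13.8 with libraries left out.

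Same-numbered samples of different groups did not deviate together (31 pairs, correlations from -0.334 to 0.39, with 13 samples closest to their own number), so the numbers were not taken as pairs. Spleen and PC cells of a genotype came from the same set of recipient mice. The labels do not say which samples share an animal, so any such pairing was left out of the tests. With a replicate block, the calls between genotypes were 0, 3 and 0 in the spleen, PC and cultures, and the 1 call for the PC against the cultures in NFKBIE-ko became 0. Over all alternatives the median log2 fold change of all genes lay between -0.0601 and 0.117.

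Counts of Asns and Slc7a11 were between 1 and 11 in all PC samples, so that small differences there were not detectable. The index the authors used was not examined, so the split of reads between Eif2ak4-202 and Eif2ak4-205 was not tested.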
